A study of Mus musculus with 2 samples.

Results

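Voltage-gated calcium channels open when the membrane depolarises and let calcium into the cell. A pore-forming alpha1 subunit sets the channel type, an intracellular beta subunit carries the pore to the membrane and shapes its gating, and an extracellular alpha2delta subunit raises the number of channels at the surface. In heart muscle the L-type current carried by the Cacna1c pore triggers contraction, and T-type currents are known from the embryonic heart and the pacemaker. The 9 subunit genes described here are 4 pores (Cacna1c and Cacna1d, L-type; Cacna1g and Cacna1h, T-type), 3 beta subunits (Cacnb1, Cacnb2, Cacnb3) and 2 alpha2delta subunits (Cacna2d1, Cacna2d2). They were chosen by name through the GENCODE M21 symbols, with earlier results of these data known. They make up 9 of the 43346 mouse genes and 92 of the 103639 mouse transcripts in the tables. Of these genes 21461 were nuclear and protein-coding in GENCODE M21, and they serve as the background below.

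RNA came from hearts of B6NCrl mouse embryos at embryonic day 12.5, healthy, with male and female embryos pooled and no transgene or treatment named in the labels. There was 1 group of 2 libraries, labelled biological replicates 1 and 2, for which 10 ng of RNA above 200 nt was used, with ERCC spike-ins added. No source used here gives the number of embryos in a pool. The tables sum to 34751234 estimated reads in replicate 1 and 31847875 in replicate 2, and the 9 members took 9666 and 9288 of them (0.0289% and 0.0303% of the reads on mouse genes). With 1 group there was no contrast and no p-value: 2 libraries cannot take an exact two-sided sign test below p = 0.5. Levels are in TPM, a length-corrected share of all transcripts in a library, and are given as the mean ± SD of the 2 libraries. Cardiomyocyte markers were high (8 of 8 detected; summed level 25350 and 25130 TPM in replicates 1 and 2); markers of other cell types are given at the end.

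All 9 members were detected, that is, at 1 TPM or more in both libraries. The same held for 57.5% of nuclear protein-coding genes. The members were chosen with earlier results known, and of 17 further genes of the channel family only 2 were detected. These shares are therefore no result about the family. The median member lay at 7.27 TPM, against 18.9 TPM for the median detected gene of that background. In bulk tissue a low level can mean few expressing cells or little RNA per cell, and these cannot be told apart. The plot of levels by library shows Cacna1c alone above the median detected gene.

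**Figure D1:**
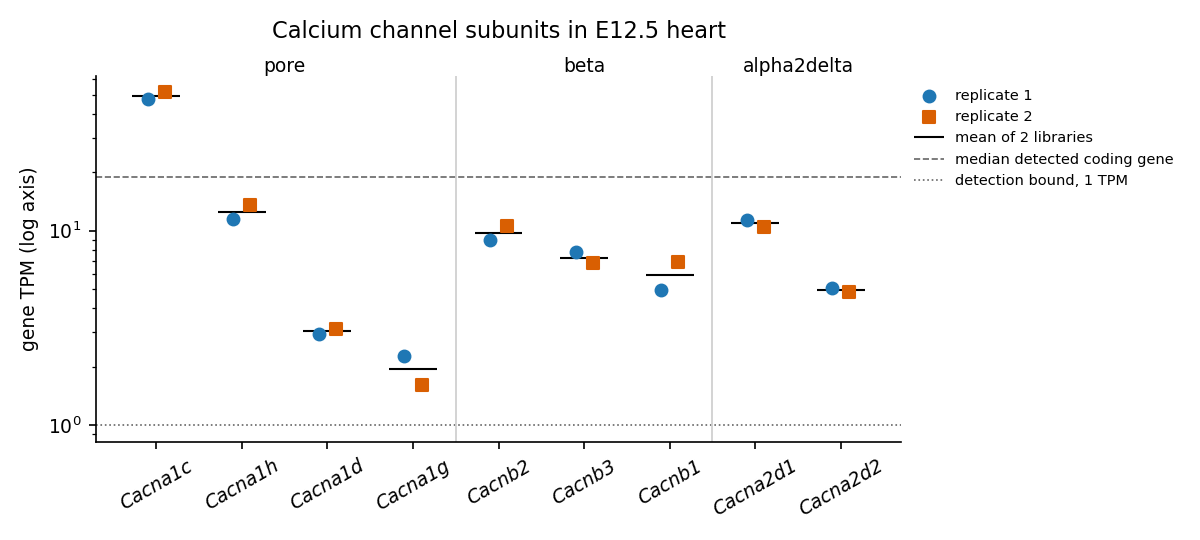
Gene TPM (log axis) of the 9 members in the 2 libraries, ordered by level within the pore, beta and alpha2delta classes; short bars are means of the 2 libraries, the dashed line is the median detected nuclear protein-coding gene (18.9 TPM) and the dotted line the detection bound of 1 TPM. Cacna1c lies at 47.4 and 51.4 TPM, and the other members lie between 1.61 and 13.5 TPM.

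Cacna1c, the L-type pore of working heart muscle (ENSMUSG00000051331.10; chr6:118587240-119196418, minus strand, mm10), stood highest. It held 47.4 TPM in replicate 1 and 51.4 TPM in replicate 2 (49.4 ± 2.85 TPM), from 3355 and 3559 estimated reads. This level rested mostly on a short transcript that codes for no protein. Cacna1c-218, which GENCODE types as a processed transcript, took 34.1 and 35.8 TPM, 70.7 ± 1.64% of the gene's TPM, from 689 and 653 reads (20.5% and 18.4% of the gene's reads). The posterior SD that the authors deposited for its reads, a measure of how firmly shared reads were assigned, was 11.1 and 12.2 reads.

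Cacna1c-218 is 954 bases long, so few reads give it a high TPM: it held 805 and 764 reads per 1000 read positions. Cacna1c-207, the leading coding transcript, is 13162 bases long and held 1706 and 1867 reads, or 131 and 143 per 1000 positions (5.53 and 6.69 TPM). By reads, Cacna1c-207 led the gene in both libraries. By TPM, Cacna1c-218 did.

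Of the 4 exons of Cacna1c-218, 3 are shared with Cacna1c-207 and the last is its own. Of its 855 windows of 100 bases, 209 occur in no other transcript of the gene in GENCODE M21. The last exon lies at chr6:118946163-118946371 on the minus strand, in the intron between exons 3 and 4 of Cacna1c-207, 106.2 kb past exon 3 and 165.8 kb before exon 4. Its sequence is shown because the level of the gene turns on it; capitals mark the hexamer AATAAA, the canonical polyadenylation signal, 14 bases before the end of the exon.
Cacna1c-218 last exon: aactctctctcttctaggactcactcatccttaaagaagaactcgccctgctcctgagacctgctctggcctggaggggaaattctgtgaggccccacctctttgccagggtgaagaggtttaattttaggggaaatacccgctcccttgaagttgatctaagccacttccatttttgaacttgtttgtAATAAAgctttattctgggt
The hexamer is common there: 26.6% of all GENCODE M21 transcripts, and 40.6% of those typed protein-coding, hold AATAAA on the sense strand in their last 50 bases. The match is a description of the sequence and says nothing of where the RNA ended in these hearts.

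Counted over protein-coding transcripts only ("coding TPM"), Cacna1c held 9.97 and 12.3 TPM (11.1 ± 1.66). Counted as all reads of the gene over the length of its longest coding transcript, a way of counting chosen after seeing the data, it held 10.9 and 12.8 TPM (11.8 ± 1.33). On both of these it lay close to the next members: Cacna2d1 and Cacna1h held 10.9 ± 0.573 and 10.2 ± 0.445 coding TPM. The plot of the 3 ways of counting shows that Cacna1c and Cacnb2 moved most between them.

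**Figure D2:**
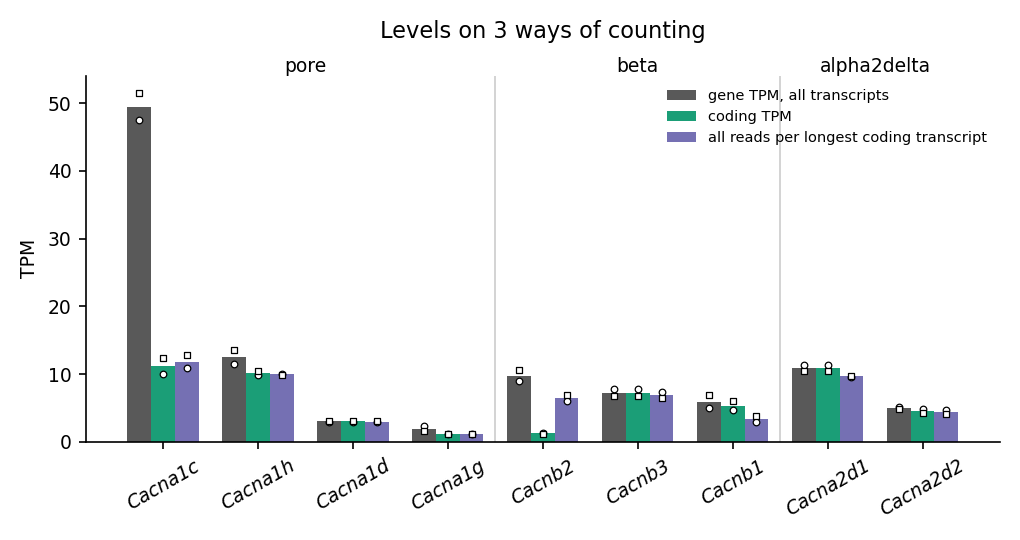
Level of each member (TPM, linear axis) counted over all transcripts, over protein-coding transcripts, and as all reads over the length of the longest coding transcript; bars are means of the 2 libraries, open circles replicate 1 and open squares replicate 2. Cacna1c falls from 49.4 to 11.1 and 11.8 TPM, and Cacnb2 from 9.73 to 1.26 and 6.42 TPM.

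The 18 coding transcripts of Cacna1c differ at 3 pairs of equal-length exons, of which most transcripts carry a single exon of each pair. As background, such mutually exclusive exons of this gene code for stretches of the membrane-spanning segments and differ in use between heart and smooth muscle. The pairs are shown with the bases that differ inside each pair in capitals, all on the minus strand of GRCm38.
Cacna1c 104-base exon upstream, chr6:118742265-118742368: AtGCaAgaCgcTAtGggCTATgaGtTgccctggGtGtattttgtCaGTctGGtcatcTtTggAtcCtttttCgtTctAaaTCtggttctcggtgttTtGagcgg
Cacna1c 104-base exon downstream, chr6:118741871-118741974: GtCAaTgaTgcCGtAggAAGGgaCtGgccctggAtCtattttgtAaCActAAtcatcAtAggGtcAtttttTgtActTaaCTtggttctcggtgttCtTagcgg
Cacna1c 60-base exon upstream, chr6:118674555-118674614: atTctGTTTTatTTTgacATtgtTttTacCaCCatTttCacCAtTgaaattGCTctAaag
Cacna1c 60-base exon downstream, chr6:118674346-118674405: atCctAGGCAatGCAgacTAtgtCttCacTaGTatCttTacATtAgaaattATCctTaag
Cacna1c 84-base exon upstream, chr6:118638427-118638510: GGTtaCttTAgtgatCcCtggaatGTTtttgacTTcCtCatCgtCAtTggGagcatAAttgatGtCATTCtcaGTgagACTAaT
Cacna1c 84-base exon downstream, chr6:118637730-118637813: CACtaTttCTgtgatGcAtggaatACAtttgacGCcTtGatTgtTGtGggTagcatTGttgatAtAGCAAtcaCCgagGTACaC
The exons of a pair differ at 32 of 104, 25 of 60 and 35 of 84 bases.

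In the 104-base pair, transcripts with the upstream exon took 85.2% of Cacna1c coding TPM in replicate 1 and 77.8% in replicate 2 (81.5 ± 5.23%), and those with the downstream exon took the rest. In the 60-base pair the downstream exon led, with 60.9% and 66.6% (63.7 ± 4.01%) against 39.9% and 34.7% for the upstream exon. In the 84-base pair the upstream exon led again, with 70.3% and 76.5% (73.4 ± 4.35%) against 31.2% and 23.5%. The same exon of each pair led in both libraries. In the 60-base pair 2 transcripts carry both exons and 1 carries neither, and in the 84-base pair 3 carry both, so these shares do not sum to 100%. They are sums over whole transcripts as the authors' quantification assigned them, not counts of reads across each junction, and Cacna1c-207, which holds all 3 leading exons, weighs heavily in them.

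The coding transcripts of Cacna1c begin in 4 places. The 4 transcripts from the distal start, between bases 119196231 and 119196418 of chromosome 6, took 82.1% and 69.7% of coding TPM (75.9 ± 8.78%). The 12 transcripts from the middle start, between 119107975 and 119108573, took 14.7% and 22.3% (18.5 ± 5.36%). The remaining starts, at 119080007 and 118757974, took 4.53 ± 3.00% and 1.0 ± 0.422%. The distal start led in both libraries, and Cacna1c-218 begins there as well.

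**Figure D3:**
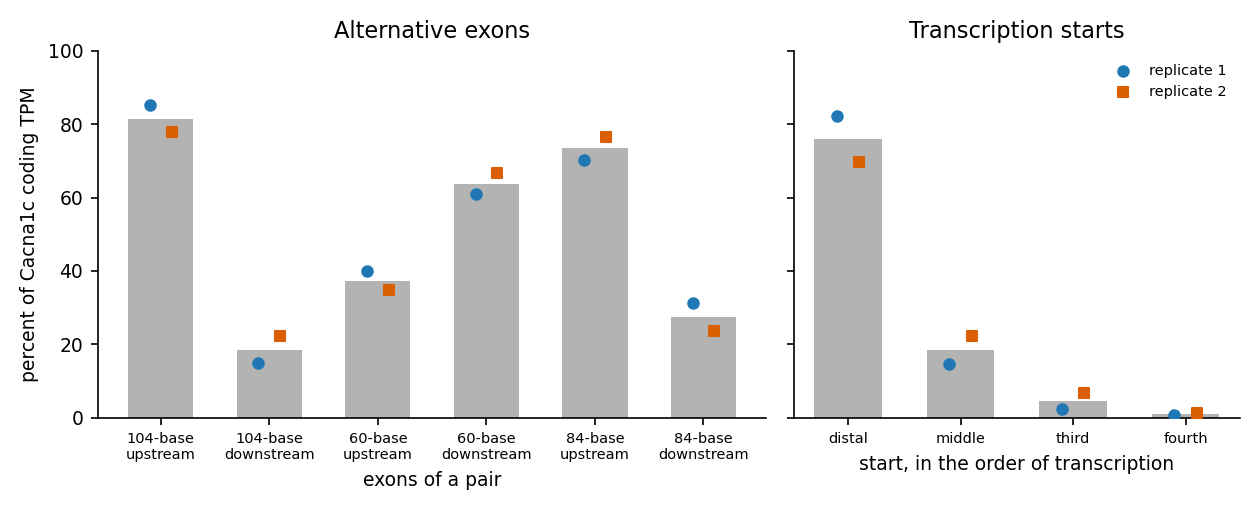
Share of Cacna1c coding TPM (percent, linear axis) held by transcripts with each exon of the 3 pairs (left) and by transcripts from each of the 4 starts (right); bars are means of the 2 libraries, circles replicate 1 and squares replicate 2. The upstream 104-base exon, the downstream 60-base exon, the upstream 84-base exon and the distal start each hold over 60% in both libraries.

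The 250 bases before a RefSeq start at each of the 2 main Cacna1c starts differ in base composition. They are shown from GRCm38.p6, minus strand. These RefSeq starts, 119196409 and 119108495, are not the starts of all transcripts counted: Cacna1c-207 begins at 119196231. Cacna1c-216 begins at 119108573, inside the middle sequence. RefSeq promoters matched 7 of the 9 members (13 promoters in all), and none was matched for Cacna1g and Cacna1h. Capitals mark GGGCGG, the GC box that SP factors bind, on either strand.
Cacna1c distal start, chr6:119196410-119196659: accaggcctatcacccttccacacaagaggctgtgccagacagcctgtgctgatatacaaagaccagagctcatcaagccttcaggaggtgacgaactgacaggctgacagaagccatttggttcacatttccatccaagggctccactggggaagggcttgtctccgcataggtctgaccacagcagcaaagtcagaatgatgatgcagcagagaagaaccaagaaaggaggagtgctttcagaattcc
Cacna1c middle start, chr6:119108496-119108745: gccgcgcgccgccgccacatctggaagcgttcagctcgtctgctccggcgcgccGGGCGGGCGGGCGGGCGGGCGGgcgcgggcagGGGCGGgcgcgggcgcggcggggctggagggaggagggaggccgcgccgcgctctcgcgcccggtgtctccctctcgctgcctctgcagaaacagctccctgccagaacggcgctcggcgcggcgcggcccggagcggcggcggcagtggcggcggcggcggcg
The distal sequence holds 2 CpG dinucleotides and 51.6% G and C, and the middle sequence holds 48 CpG and 82.8% G and C, against a median of 6 CpG over 32851 RefSeq promoters of the same length. GGGCGG occurs 6 times in the middle sequence, with overlaps of neighbouring matches, and not in the distal one; 32.7% of all promoters hold it. Other motifs were searched the same way on both strands, with overlaps between motifs allowed, and none occurs in either sequence. They were the GATA factor motif AGATAA (held by 9.99% of all promoters), the MEF2 motif (CTA, any 4 bases and TAG; 3.2%), the TATA box (12.4%) and the motif of TEAD factors, CATTCC (12.6%). The TATA box was searched as TATAAA. No match says only that these letters are not in the window.

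Cacna1h, a T-type pore (ENSMUSG00000024112.12; chr17:25374285-25433783, minus strand), was the next pore by level. It held 11.4 and 13.5 TPM (12.5 ± 1.45 TPM; 1935 and 1717 reads). Its coding transcript Cacna1h-205 took 85.8% and 70.2% of the gene's TPM and 97.4% and 95.7% of its reads. By the deposited posterior mean TPM the share of Cacna1h-205 was lower, 64.2% and 57.7%. Of its 8131 windows only 3 occur in no other transcript of the gene, so its share rests mostly on shared reads. Cacna1h-203, typed as a retained intron, was next at 9.89 ± 0.268% of TPM. Coding TPM was 9.86 and 10.5 (10.2 ± 0.445), and this smaller figure varied less between the libraries.

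Cacna1d, the other L-type pore, known for pacemaker cells of the sinoatrial node (ENSMUSG00000015968.12; chr14:30039939-30491455, minus strand), held 2.96 and 3.12 TPM (3.04 ± 0.113 TPM; 603 and 573 reads). Both of its listed transcripts are coding. Cacna1d-202 took 92.9 ± 3.29% of its TPM.

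Cacna1g, the other T-type pore, of atrioventricular and sinoatrial conduction (ENSMUSG00000020866.13; chr11:94408391-94474198, minus strand), was the lowest member. It held 2.26 and 1.61 TPM (1.94 ± 0.460 TPM; 230 and 192 reads). Short noncoding transcripts with few reads made up much of this, and coding TPM was 1.15 and 1.08 (1.12 ± 0.0495). It was the one member whose leading transcript changed between libraries, from Cacna1g-205 (29.1% of TPM in replicate 1) to Cacna1g-203 (37.9% in replicate 2, after 6.61% in replicate 1). By the deposited posterior mean TPM these leading shares were only 7.92% and 7.80%. On that measure the noncoding Cacna1g-213 and Cacna1g-215 held more, 20.8% and 19.9% as means of the 2 libraries. Cacna1g-203 has no window of 100 bases of its own within the gene, so its share rests on reads it has in common with other transcripts.

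Among the beta subunits, Cacnb2, the main beta subunit of adult heart muscle (ENSMUSG00000057914.11; chr2:14603088-14987908, plus strand), held 8.93 and 10.5 TPM (9.73 ± 1.13 TPM; 542 and 565 reads). Little of it was coding: the 5 protein-coding transcripts held 1.34 and 1.17 TPM (1.26 ± 0.120), 15.0% and 11.1% of the gene's TPM and 16.4% and 13.6% of its reads. Those coding transcripts rested on 88.7 and 76.8 estimated reads. The 10 transcripts typed as retained introns held 82.9 ± 2.14% of the gene's TPM. Cacnb2-204, which led, took 43.8% and 34.5%, and the largest coding transcript, Cacnb2-203, took 10.5% and 8.65%.

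Most of the Cacnb2 level lay in transcripts that read on past 1 exon. Cacnb2-204, Cacnb2-205, Cacnb2-207 and Cacnb2-208 run past the end of exon 5 of Cacnb2-203 (chr2:14960655-14960791, 137 bases) into the intron, by 66 bases to 4.628 kb, and together took 60.7 ± 1.97% of TPM and 68.8% and 67.5% of the gene's reads. The junction is shown with exon bases in lower case and intron bases in capitals, plus strand, chr2:14960762-14960821.
Cacnb2 exon 5 end and intron: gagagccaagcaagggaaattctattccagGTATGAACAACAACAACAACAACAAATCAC
Reads of an unspliced precursor and of a finished transcript that keeps the intron cannot be told apart in these tables. Cacnb2-204, Cacnb2-207 and Cacnb2-208 also share earlier exons with Cacnb2-203, and reads on shared exons were divided by the authors' model. Counted as all reads over the longest coding transcript, Cacnb2 held 5.96 and 6.88 TPM (6.42 ± 0.653), the widest gap from coding TPM among the 9 members.

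Cacnb3, a beta subunit best known from neurons and smooth muscle (ENSMUSG00000003352.9; chr15:98630840-98644529, plus strand), held 7.73 and 6.81 TPM (7.27 ± 0.651 TPM; 475 and 378 reads), all from coding transcripts, with Cacnb3-202 at 79.9 ± 1.24% of its TPM. Cacnb1, the beta subunit of skeletal muscle channels (ENSMUSG00000020882.13; chr11:98001508-98023034, minus strand), held 4.95 and 6.93 TPM (5.94 ± 1.40 TPM; 231 and 267 reads), of which 90.6 ± 4.35% was coding. Cacnb1-202 led with 73.0 ± 5.31% of TPM, but with 55.4% by posterior mean TPM (mean of the 2 libraries). It has no window of its own within the gene, so its share rests on shared reads. In coding TPM the order of the class changed: Cacnb3 held 52.5 ± 5.58% of the summed beta level, Cacnb1 38.5 ± 6.61% and Cacnb2 9.06 ± 1.03%. In gene TPM Cacnb2 held the largest share, 42.4 ± 1.46%, but no pair of beta subunits differed beyond the spread by the rule for pairs given below. By that rule Cacnb2 lay below both others in coding TPM, where Cacnb3 and Cacnb1 did not differ. In all reads per longest coding transcript the shares of Cacnb3 and Cacnb2 were 41.6 ± 5.25% and 38.3 ± 2.50%, and these 2 did not differ by the rule.

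Of the alpha2delta subunits, Cacna2d1, the form that binds gabapentin and is the main one of heart muscle (ENSMUSG00000040118.11; chr5:15934691-16374511, plus strand), held 11.3 and 10.5 TPM (10.9 ± 0.573 TPM; 1669 and 1533 reads), all coding. Cacna2d1-206 led with 44.6% and 52.6% of its TPM, before Cacna2d1-202 (28.6% and 29.1%) and Cacna2d1-204 (26.9% and 12.2%). Cacna2d2, best known from cerebellar neurons (ENSMUSG00000010066.11; chr9:107399612-107529343, plus strand) held 5.07 and 4.84 TPM (4.96 ± 0.163 TPM; 626 and 504 reads), of which 91.4 ± 6.58% was coding. Cacna2d2-208 led with 60.3 ± 10.1% of TPM, but with 49.9% by posterior mean TPM (mean of both libraries). It too has no window of its own within the gene, so its share rests on shared reads. Cacna2d1 was 2.2 ± 0.0434 times higher than Cacna2d2 in gene TPM, and took 68.7 ± 0.424% of the class sum, or 70.7 ± 1.11% of it in coding TPM.

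Over the 9 members, the coding share of gene TPM was under 50% in both libraries for 2, Cacna1c and Cacnb2; the same held for 6.64% of detected nuclear protein-coding genes. For 3 members, Cacna1d, Cacnb3 and Cacna2d1, no other transcript type was listed. The leading transcript was the same in both libraries for 8 of 9 members, against 92.1% of detected background genes with 2 or more transcripts. Of the 92 transcripts, 28 were assigned an estimated count of 0 in both libraries, which does not show that they are absent, since the reads of near-identical transcripts are shared out by the model. The share over all listed transcripts is not given here, so this count is no result about the members. The plot of transcript types shows these splits side by side.

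**Figure D4:**
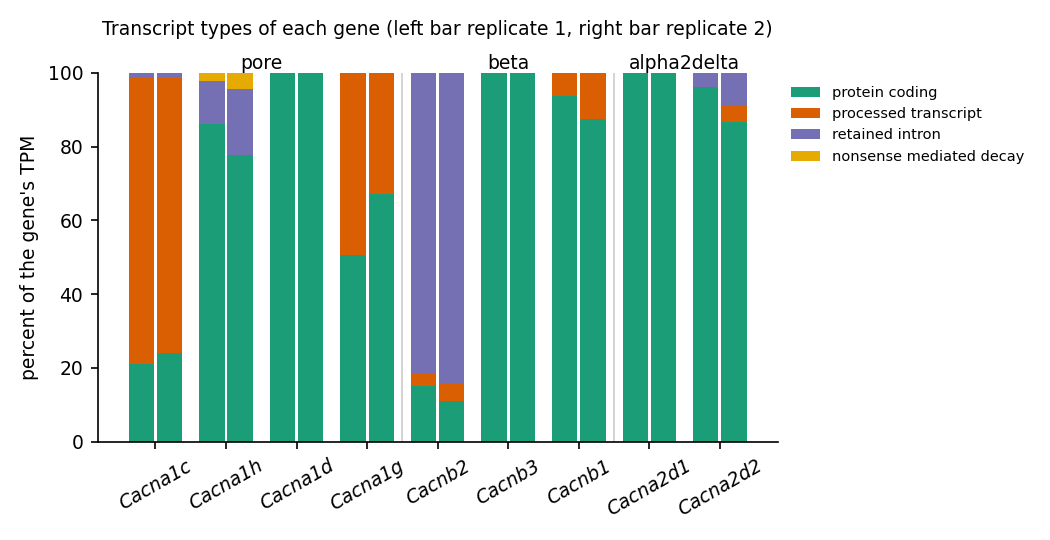
Share of each member's TPM (percent, linear axis) by transcript type in GENCODE M21; the left bar of each pair is replicate 1 and the right bar replicate 2. Processed transcripts fill 77.9% and 75.0% of Cacna1c, retained-intron transcripts fill 81.4% and 84.4% of Cacnb2, and Cacna1d, Cacnb3 and Cacna2d1 are all coding.

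The balance of the classes changed with the way of counting. In gene TPM, Cacna1c made up 74.0% and 73.9% of the 4 pores, and the T-type pores 21.4% and 21.7%. In coding TPM, Cacna1c made up 41.7% and 45.6% and the T-type pores 46.0% and 42.8% (44.4 ± 2.23%), most of it Cacna1h. All reads per longest coding transcript gave 45.6 ± 2.97% for Cacna1c and 43.1 ± 2.82% for the T-type pores. The summed pore level was 64.1 and 69.7 TPM in gene TPM, 2.92 ± 0.0669 times the beta sum and 4.23 ± 0.445 times the alpha2delta sum. In coding TPM the sums drew together: 25.5 ± 2.17 TPM for pores, 13.9 ± 0.247 TPM for beta subunits and 15.4 ± 1.05 TPM for alpha2delta subunits. The L-type pores alone then stood at 1.02 ± 0.110 times the beta subunits. That ratio was 2.29 ± 0.0586 in gene TPM and 0.879 ± 0.0536 in all reads per longest coding transcript. The beta sum was 1.45 times the alpha2delta sum in gene TPM, 0.901 times in coding TPM and 1.19 times in all reads per longest coding transcript.

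To see which members differ in level, all 36 pairs were compared within each library as log2 ratios of TPM + 0.1. A pair was counted as apart when the sign held in both libraries and the mean ratio exceeded 3 standard errors, from the spread of the 2 genes between libraries or of genes at the same level, whichever was larger. In gene TPM 28 of 36 pairs were apart, against 90.4% of all pairs of detected background genes. Among the 8 neighbours in the order of levels 2 were apart. Neighbours are close by construction, since the same values set the order. The share for neighbouring background genes is not given here, so this count is no result about the members. Cacna1c stood above Cacna1h by 1.98 (log2; SE 0.13), and Cacna2d2 above Cacna1d by 0.69 (SE 0.15). From Cacna1h down through Cacna2d1, Cacnb2, Cacnb3 and Cacnb1 to Cacna2d2, no member differed from the next beyond their spread, nor did Cacna1d from Cacna1g.

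In coding TPM 30 of 36 pairs were apart, against 90% of background pairs, and the top of the order changed. Cacna1c over Cacna1h was 0.02 in replicate 1 and 0.23 in replicate 2 (mean log2 0.12, SE 0.16), and Cacna1c over Cacna2d1 was -0.18 and 0.23. These 3 genes, 1 pore of each main type and 1 alpha2delta subunit, did not differ beyond their spread. Cacna1h stood above Cacnb3 by 0.48 (SE 0.11), Cacna2d2 above Cacna1d by 0.56 (SE 0.16) and Cacna1d above Cacnb2 by 1.21 (SE 0.18). The last pair was apart the other way on the other scales. Cacnb2 stood above Cacna1d by 1.64 (SE 0.17) in gene TPM and by 1.11 (SE 0.15) in all reads per longest coding transcript. Cacna1c was 10.0 times Cacna1g, the lowest, in coding TPM, and 25.5 times in gene TPM.

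Between the libraries, no member differed by more than 3 robust SDs of the genes at its level (0 of 9, against 2.11% of detected background genes). By a narrower bound, 4 of the 9 had a difference no larger than the upper quartile of its size among genes at their level. All but the most variable quartile of those genes meet that bound by definition. In gene TPM 5 members were higher in replicate 2 and 4 in replicate 1. Cacnb1 came closest to the bound of 3 robust SDs. It was higher in replicate 2 by 0.48 (log2 of TPM + 0.1), where the robust SD of such a difference was 0.17. Cacna1g was lower in replicate 2, at -0.46 with a robust SD of 0.29. For Cacna1c, the most deeply read member, the difference was 0.12, with a robust SD of 0.077.

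**Figure D5:**
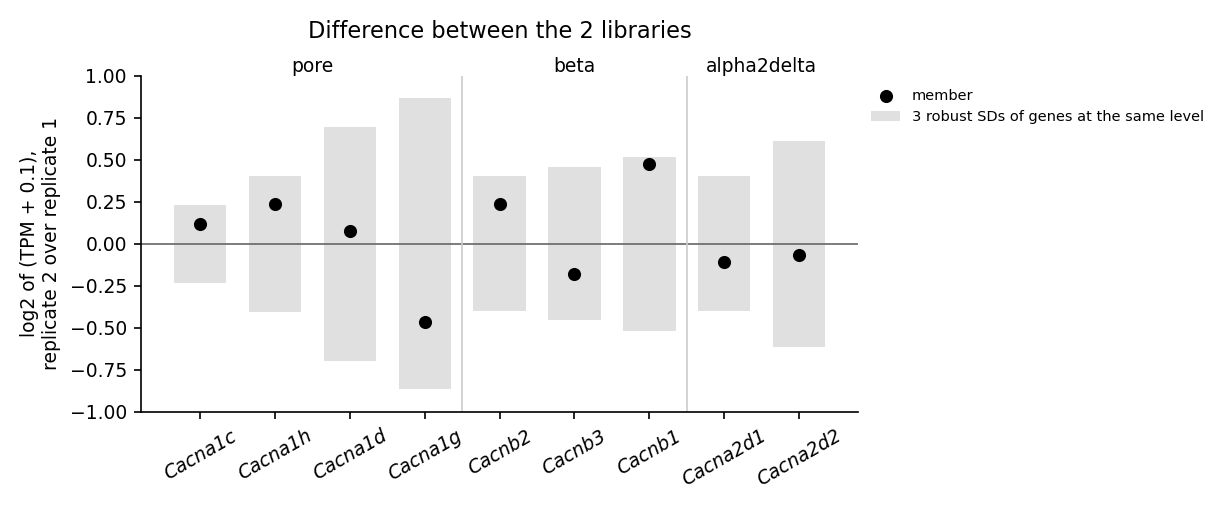
Difference between the libraries for each member, as log2 of (TPM + 0.1) in replicate 2 over replicate 1 (points), with grey bars spanning 3 robust SDs either way of the difference among genes at the same level. All 9 points lie inside their bars, and Cacnb1 (0.48) lies closest to its bound.

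The other genes of the channel family were mostly low. Of 17 further pore, beta, alpha2delta and gamma genes, 2 were detected and 6 were under 0.1 TPM in both libraries; 26.8% of nuclear protein-coding genes were that low. Cacng6, a gamma subunit, held 19.2 and 18.8 TPM, all but a trace of it coding. Cacna1a, a pore of presynaptic terminals, held 7.58 and 7.54 TPM, but 0.68 and 0.67 coding TPM, below the detection bound. Cacna1i, the remaining T-type pore, Cacng2 and Cacng3 had no read in either library, where 0 reads still allow up to 3, or 0.0131 to 0.0525 TPM over their longest coding transcripts, for counting error only. Cacnb4, the remaining beta subunit, held 0.33 and 0.26 TPM, and Cacna1s, the skeletal muscle pore, 0.47 and 0.64 TPM. Cacna1b, Cacna1e, Cacna1f, Cacna2d3, Cacna2d4, Cacng1, Cacng4, Cacng5, Cacng7 and Cacng8 lay at 0.67 TPM or less in each library.

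Of 18 genes that act on the channels 15 were detected, with a median of 15.6 TPM over the 18. Rrad, a small GTPase that restrains L-type channels through the beta subunit, held 229 and 230 TPM, and Prkaca, the catalytic subunit of protein kinase A, 176 and 189 TPM. Camk2d, a calcium-dependent kinase that acts on the channels, held 107 and 112 TPM. Rem2 was detected at 1.59 and 1.94 TPM, and Stac, Stac2 and Stac3, adaptors of L-type channels, were not detected by the 1 TPM bound.

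Of 12 partners of the channels in excitation-contraction coupling 11 were detected, with a median of 50.9 TPM. Pln and Atp2a2, which control calcium uptake into the sarcoplasmic reticulum, held 464 and 498 TPM and 333 and 326 TPM, and Asph and Casq2 were next with 102 and 102 TPM and 86.2 and 87.7 TPM. Of 8 splicing regulators that act on heart transcripts all were detected, with a median of 48.9 TPM. Ptbp1, Celf1, Mbnl1 and Rbm24 led with 114 and 116, 111 and 115, 62.9 and 63.4, and 50.3 and 50.1 TPM. Whether any of them acts on the exon pairs of Cacna1c was not tested.

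The members are not specific to muscle cells, so markers of the other cells in the dissection are given. Sinoatrial and conduction markers were detected in 7 of 8 cases (summed level 84.0 and 81.6 TPM) and smooth muscle markers in 5 of 6 (1307 and 1355 TPM). Neural and neural crest markers were detected in 3 of 8 cases (14.5 and 13.2 TPM), skeletal muscle markers in 4 of 8 (414 and 414 TPM, mostly Acta1, which heart also expresses) and neuroendocrine markers in 1 of 6 (2.51 and 2.24 TPM, with Ins2 at 0 in both libraries). Erythroid markers were detected in 4 of 4 (32460 and 29150 TPM). Hepatocyte markers were detected in 5 of 5 and were the marker list that differed most between libraries (199 TPM in replicate 1 and 57.7 TPM in replicate 2). The part of any of these cells in the members' levels was not tested.

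Some member exons overlap other genes on the opposite strand, and no source used here says whether the counting kept strand. Gm10849, a pseudogene opposite the first exons of Cacnb2-203 and Cacnb2-213, shares 618 bases with them and held 88.4 and 62.1 reads. Chdh shares 587 bases with the end of Cacna1d and held 8.86 and 27.1 reads. The 5 other overlapping genes held at most 17.9 reads in a library.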

How the data were processed

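Total RNA of E12.5 mouse heart was measured in 2 libraries. The authors quantified reads per gene and per transcript on mm10 with GENCODE M4, as the deposited notes say. The sources used here give no aligner, quantifier or strand setting. Expected counts, as deposited, are estimated counts of reads, shared reads divided by a model. The deposited TPM is scaled over all listed features, spike-ins included, and the deposited FPKM by length and depth. The deposited percent values give each transcript's share of its gene, and the interval bounds the authors deposited beside TPM were read as a score.

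Genes were matched by Ensembl ID to GENCODE M21 on the same build for names, types and exons; 8 of the 92 member transcripts (of Cacna1d, Cacnb3 and Cacna2d1) have another length there, so no exon shares are given for them. Exon and start shares are sums of the deposited TPM over transcripts. The SD of genes at the same level came from 20 bins of detected nuclear protein-coding genes (median absolute deviation of the difference between replicates). The libraries are not 1 library deposited in duplicate: their counts differed beyond sampling noise (chi-square per degree of freedom 4.39 over 16608 genes). Depth was 34751234 and 31847875 estimated reads; limits cover counting error only, since PCR copies are not independent.

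Members, gene lists and rules were chosen with earlier results of these data known. The rule lets all 9 members, every further calcium channel gene, up to 4 of the highest genes of each list and the leading transcripts be named; Camk2d, Rem2, Stac, Stac2, Stac3, Acta1 and Ins2, and the genes that overlap members, were named after their values were seen. Some of the highest channel modulators are not reported here. The steps were tested on simulated data. Values were computed in Python 3.11.15 with pandas 2.3.3, numpy 2.4.6 and scipy 1.17.1, and plotted with matplotlib 3.10.9; edgeR 4.0.16 and DESeq2 1.42.0 (R 4.3.3) gave size factors from rounded expected counts for alternatives, with no test. Alternatives covered units, posterior means, coding transcripts, scaling, length, pseudocounts, bounds and each library alone.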

Additional observations from a re-analysis of the deposited data

How the results depend on the processing

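At a detection bound of 5 TPM 5 members passed, in place of 9, and the other alternatives kept 9. The share of nuclear protein-coding genes at 5 TPM is not given here, so this count is no result about the members. Counts of pairs apart lay between 28 and 32 of 36, and posterior mean TPM called 4 neighbours in place of 2. A similar count does not mean the same calls: Cacna1d and Cacnb2 were apart in opposite directions in gene TPM and over protein-coding transcripts. The share of Cacna1c among pores, 73.9% in gene TPM, was 71.6% from posterior mean TPM, 73.6% from reads per annotated length, 43.6% over protein-coding transcripts and 45.6% from all reads per longest coding transcript. For the T-type share, 21.5%, these values were 24.0%, 21.8%, 44.4% and 43.1%. Cacnb2 among beta subunits moved from 42.4% to 43.8% (posterior mean), 9.06% (protein-coding) and 38.3% (longest coding transcript), and Cacna2d1 among alpha2delta subunits from 68.7% to 66.2% (posterior mean) and 70.7% (protein-coding). With 1 library left out, 29 to 30 pairs and 3 neighbours were apart, taking the remaining library to vary like genes at the same level. Each library alone gave Cacna1c 73.9% to 74.0% of pores. Scaling by TMM, DESeq2 size factors or spike-ins left 0 of 9 members apart between libraries, and moved the median gene by under 0.1 (log2). For the type of the leading transcript, the protein-coding alternative could give no value. No paired analysis was possible because there is 1 group. The cause of these shifts was not tested beyond the transcripts that each way of counting leaves out. By all reads of a gene, depth limits Cacna1g most, with 230 and 192 reads. By reads on coding transcripts it limits Cacnb2 most, with 88.7 and 76.8 reads, against 214 and 184 for Cacna1g.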

Other observations

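Of the members, 5 had more than 1 RefSeq start, and their coding TPM can be set beside the CpG count of the 250 bases before each RefSeq start. In Cacna1c these RefSeq starts are not the starts of all transcripts counted. In Cacna1d the start at base 30491156 of chromosome 14 took 92.9 ± 3.29% of coding TPM and has 2 CpG before it, with 3 matches to TATAAA; the start near 30353486 has 50. In Cacnb3 the start near base 98632328 of chromosome 15 took 79.9 ± 1.24% and has 2 CpG, and the start at 98634767 has 23. In Cacna1c the distal start, with 2 CpG, took the most, but the start at 118757974 of chromosome 6, with 5 CpG, took 1.0 ± 0.422%, less than the middle start with 48 CpG (18.5 ± 5.36%). In Cacnb1 the order was the other way: the start at 98022627 of chromosome 11, with 26 CpG, took all of the coding TPM as assigned and 94.6 ± 0.492% of the posterior mean TPM, and the start at 98018372, with 1 CpG, was listed at 0 but held 5.35 ± 0.492% of the posterior mean. In Cacnb2 the start at 14604306 of chromosome 2, with 30 CpG, took 74.0 ± 5.39% of a low coding TPM (51.2 ± 8.13% of the posterior mean), and the start at 14824092, with 3 CpG, was listed at 0 (5.20 ± 1.73% of the posterior mean). The starts are those of GENCODE M21, and Cacna1d and Cacnb3 transcripts have revised lengths there, so their start shares may not be those of the annotation used for counting.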
